A study of Mus musculus with 9 samples.

Results

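The genes described here are 10 that sense microbial or damage-derived molecules and carry the interleukin-1 (IL-1) signal in the mouse atrioventricular (AV) node. They were chosen by symbol, and all 10 are among the 34198 gene symbols of the deposited table. They comprise 3 Toll-like receptors (Tlr2, Tlr4, Tlr7), 2 co-receptor proteins of Tlr4 (Cd14, Ly96), the shared adaptor Myd88, the inflammasome sensor Nlrp3, and the IL-1 system (Il1b, its receptor Il1r1 and the receptor antagonist Il1rn). AV nodes, the tissue that relays the impulse from the atria to the ventricles, were microdissected from C57BL/6J mice and sequenced as bulk RNA. The 9 libraries fall into 3 groups of 3. Macrophage-depleted nodes came from Cd11bDTR mice, in which cells with an active Cd11b promoter carry the diphtheria toxin receptor (libraries 7 to 9). Cx3cr1 Cx43-/- nodes lack connexin 43 in Cx3cr1-expressing cells (libraries 4 to 6). Control nodes are labelled only as control (libraries 1 to 3). The labels give no toxin dose, time after toxin, age or sex, and do not say whether control mice received toxin or whether nodes were pooled. Cd11b is also carried by monocytes and neutrophils, so the depletion model is not limited to resident macrophages.

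Toll-like receptors bind microbial products or molecules released by damaged cells, at the cell surface for Tlr2 and Tlr4 and inside endosomes for Tlr7, which senses single-stranded RNA. Tlr4 recognises lipopolysaccharide together with MD-2, the product of Ly96, after CD14 has handed the ligand over. Tlr2, Tlr4 and Tlr7 all use the adaptor Myd88, as does the IL-1 receptor, and the path leads to NF-kB. Nlrp3 assembles the inflammasome, in which caspase-1 cuts the precursor of IL-1 beta, and Il1rn encodes a secreted protein that occupies the IL-1 receptor without signalling. In the heart, macrophages are known carriers of several of these receptors, while the IL-1 receptor is known from endothelial cells and fibroblasts as well.

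Values are CPM, read counts that the authors divided by a total per library. The CPM denominators held reads outside the listed genes, and the listed genes took 28.3% to 44.0% of them in the macrophage-depleted, 46.8% to 47.9% in the Cx3cr1 Cx43-/- and 42.8% to 48.7% in the control libraries. Library 9 was the lowest. From the spacing of low values, 1 CPM corresponded to about 52.1 to 64.9 reads, least surely in library 8. In macrophage-depleted nodes against control, all tested genes had a median change (log2) of -0.49 on the deposited scale, -0.18 with library totals set equal and -0.03 under median-of-ratios scaling, the pair of rescalings used below. The 7 AV node markers, Hcn4 and Tbx3 among them, were all detected. All 7 fell in macrophage-depleted against control nodes (6 under both rescalings), beside 33.0% lower among all tested genes on the deposited scale. Their summed levels were 58.2 to 87.9 CPM in macrophage-depleted, 225 to 297 CPM in Cx3cr1 Cx43-/- and 274 to 321 CPM in control libraries. Summed over 16 resident macrophage markers, the level was 79.9 to 88.3 CPM in macrophage-depleted, 486 to 652 CPM in Cx3cr1 Cx43-/- and 318 to 502 CPM in control libraries. Of these markers 13 of 16 fell in macrophage-depleted against control nodes (12 under both rescalings), beside 33.0% lower among all tested genes. Cd163 was listed at 0 in library 8 and Timd4 in libraries 8 and 9. Both stayed below 1 CPM in all depleted libraries and entered the test only through the other groups. The count is therefore no support for a change of the list. Fcgr1 overlapped, at 2.42, 7.54 and 5.34 CPM in depleted against 2.99, 2.62 and 3.56 CPM in control libraries. So did Lyve1, at 13.72, 17.34 and 6.25 CPM against 23.15, 10.12 and 17.41 CPM.

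The first comparison asked how these sensors stood in nodes depleted of macrophages. Tlr2 and Tlr7 fell, Cd14 fell on the deposited scale, and Il1r1 rose, while Tlr4, Ly96 and Myd88 did not pass the test. Differences were tested on log2(CPM + 0.5) with limma over all genes that reached 1 CPM in 3 or more libraries, and calls were made at an adjusted p (Benjamini-Hochberg) below 0.05. This filter kept 7 of the 10 genes and left out Nlrp3, Il1b and Il1rn. Of the 7 tested, 3 were lower and 1 was higher, beside 33.0% lower and 3.23% higher among all 12925 genes tested (36.2% in either direction). The share of lower genes is near that of all genes and is not a result about these genes as a set. Tlr2 and Tlr7 lay below every control library and Il1r1 above, 3 of 7 without overlap, beside 41.6% of all genes (38.0% lower, 3.61% higher). With equal library totals, and also under median-of-ratios scaling, 2 of the 7 were lower and 3 higher. Over all genes those scalings gave 1141 higher and 2532 lower, and 1702 higher and 1674 lower, against 417 and 4261 on the deposited scale. In bulk tissue, fewer cells of a type and less RNA per cell cannot be told apart.

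**Figure D1:**
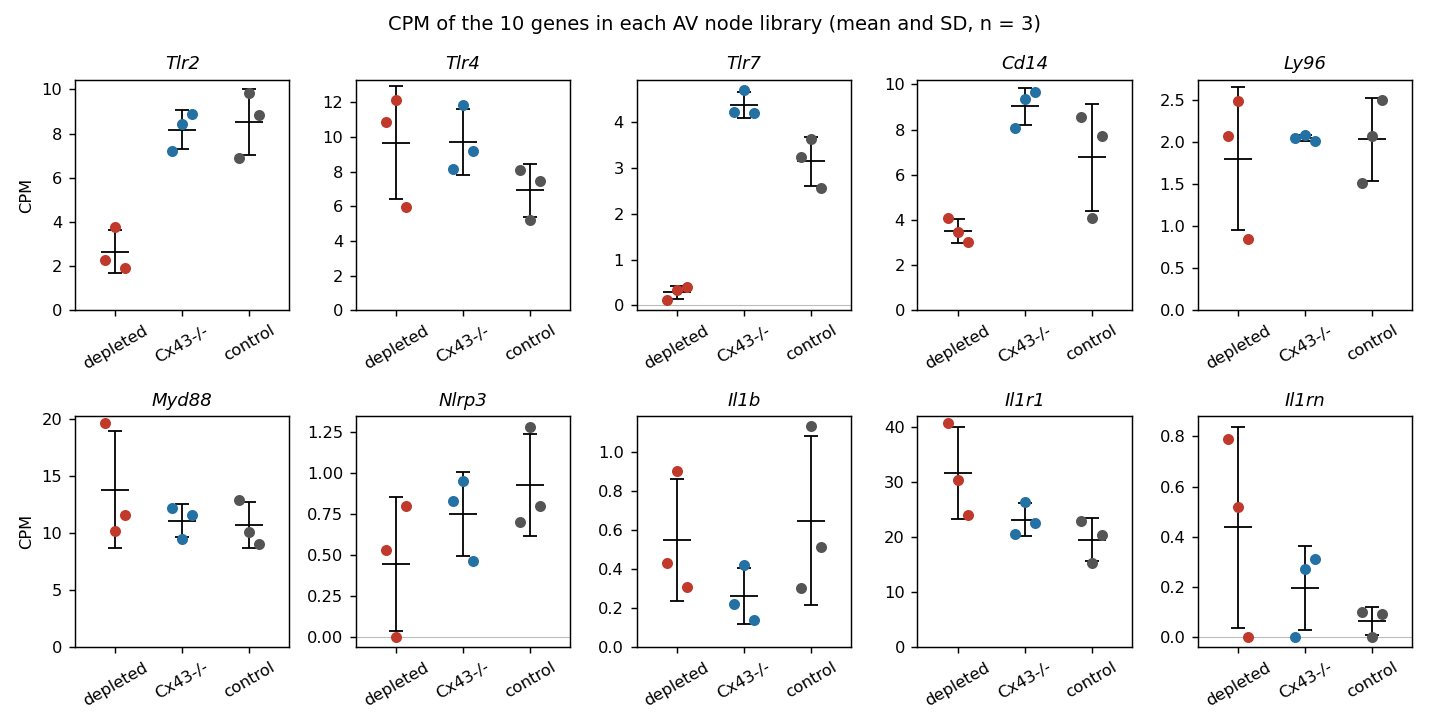
CPM (y axis, a separate scale per gene) of the 10 genes in each library, with depleted, Cx43-/- and control nodes from left to right; points are libraries, horizontal bars are means and whiskers SD (n = 3). The 3 depleted libraries lie below all others for Tlr2 (1.92 to 3.78 CPM) and Tlr7 (0.12 to 0.40 CPM), and overlap the control libraries for Tlr4, Cd14, Ly96, Myd88, Nlrp3, Il1b and Il1rn.

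Tlr7, the endosomal sensor of single-stranded RNA, stood at 0.12, 0.33 and 0.40 CPM in the macrophage-depleted libraries 7, 8 and 9, against 3.23, 3.63 and 2.56 CPM in control libraries 1, 2 and 3. The groups did not overlap, and the depleted values rested on as few as 7 reads. Mean levels were 0.283 ± 0.146 CPM and 3.14 ± 0.541 CPM (SD, n = 3 each), a mean 11.1-fold lower in depleted nodes. The difference on the log2(CPM + 0.5) scale, too small for a gene this low, was -2.22 (SE 0.36, limma adjusted p = 7.27e-05). With a pseudocount of 0.1 it was -3.15. The call held in every alternative run that tested the gene, with adjusted p up to 0.00355, its value without a filter; a filter on a mean of 5 CPM left it out. Tlr7 passed the filter only through the control and Cx3cr1 Cx43-/- libraries.

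Tlr2, the surface receptor for bacterial lipopeptides, stood at 2.28, 3.78 and 1.92 CPM in macrophage-depleted libraries, against 6.91, 9.84 and 8.84 CPM in control libraries. All 3 depleted values lay below the lowest control value. The means were 2.66 ± 0.987 CPM and 8.53 ± 1.49 CPM (SD, n = 3 each), 3.21-fold lower in depleted nodes, and the log2 difference was -1.55 (SE 0.30, limma adjusted p = 0.000453). It was -1.26 with equal library totals and -1.12 under median-of-ratios scaling, and remained called in both.

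Tlr4, the lipopolysaccharide receptor, was not called on the deposited scale. It stood at 10.85, 12.14 and 5.97 CPM in macrophage-depleted libraries, against 8.11, 5.19 and 7.48 CPM in control libraries. Libraries 7 and 8 lay above all controls and library 9, which has the smallest share of reads in listed genes, lay between them. The log2 difference was 0.42 (95% interval -0.19 to 1.02, limma adjusted p = 0.263). With equal library totals it was 0.73 (adjusted p = 0.0261), under median-of-ratios scaling 0.88 (adjusted p = 0.00935), and without library 9 it was 0.71 (adjusted p = 0.0466). Whether Tlr4 was called thus depended on the scaling and on library 9.

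Promoter windows for 6 of the 10 genes were taken from a RefSeq table of build GRCm38.p6, which is not the mm9 build named in the submitters' processing notes, so they are matched by symbol and not by coordinates of the files. A chromosome was left out of this search, so a gene without a window here may have one in that table. The windows of Tlr2 and Il1r1, the called genes that went in opposite directions and have a window here, are shown for the 250 bases before each annotated start, 5′ to 3′ on the gene's strand. Capitals mark matches to the NF-kB consensus on either strand. Tlr2 lies on the minus strand at chr3:83841609-83841858, and Il1r1 has a window at chr1:40224830-40225079 and another at chr1:40266336-40266585, both on the plus strand.
Tlr2: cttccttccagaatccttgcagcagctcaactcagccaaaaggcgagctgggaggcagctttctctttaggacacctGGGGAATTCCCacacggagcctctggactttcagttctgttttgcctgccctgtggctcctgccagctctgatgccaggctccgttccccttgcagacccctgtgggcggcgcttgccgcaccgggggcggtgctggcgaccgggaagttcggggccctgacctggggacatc
Il1r1, upstream start: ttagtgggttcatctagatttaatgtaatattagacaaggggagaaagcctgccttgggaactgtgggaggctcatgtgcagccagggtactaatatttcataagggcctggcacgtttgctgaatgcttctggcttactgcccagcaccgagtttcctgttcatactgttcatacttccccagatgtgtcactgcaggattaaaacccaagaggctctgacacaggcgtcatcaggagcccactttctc
Il1r1, downstream start: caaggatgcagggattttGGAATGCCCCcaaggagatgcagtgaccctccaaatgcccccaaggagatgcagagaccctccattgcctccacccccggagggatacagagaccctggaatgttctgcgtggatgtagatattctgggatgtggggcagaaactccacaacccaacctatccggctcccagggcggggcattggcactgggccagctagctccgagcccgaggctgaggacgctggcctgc

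The Tlr2 window holds 2 overlapping NF-kB matches beginning 173 bases before the start, and the downstream Il1r1 window holds 1 beginning 232 bases before it. Of all 32851 windows of this length, 3.90% hold at least 1 such match. The AP-1 letters TGANTCA (6.75% of windows) and the PU.1 letters GAGGAAG (10.6%), searched on both strands, occur in none of these 3 windows. Among the windows not shown, 1 of Nlrp3 held 2 PU.1 matches and the other 1 NF-kB match. An Il1rn window held 1 AP-1 match, and the remaining Il1rn windows and those of Il1b and Myd88 held none. A match describes letters and not a bound site.

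Of the co-receptors of Tlr4, Cd14 was called on the deposited scale and Ly96 was not. Cd14, which passes lipopolysaccharide on to Tlr4 and also serves Tlr2, stood at 4.09, 3.45 and 3.02 CPM in macrophage-depleted libraries, against 8.54, 4.09 and 7.73 CPM in control libraries. Libraries 7 and 2 shared the same value, so the groups touched. The log2 difference was -0.81 (SE 0.30, limma adjusted p = 0.0390). This call ended with equal library totals (-0.51, adjusted p = 0.151), under median-of-ratios scaling (-0.36, adjusted p = 0.294), without a filter (adjusted p = 0.0943) and when only these 6 libraries were fitted (adjusted p = 0.0990). It also ended without control library 1 (-0.62, adjusted p = 0.188) or 3 (-0.69, adjusted p = 0.152), without depleted library 8 (-0.80, adjusted p = 0.0608) or 9 (-0.72, adjusted p = 0.0842), and without any of the 3 Cx3cr1 Cx43-/- libraries (adjusted p = 0.0571 to 0.0623).

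Ly96, whose product MD-2 forms the lipopolysaccharide pocket on Tlr4, stood at 2.07, 2.49 and 0.85 CPM in macrophage-depleted libraries, against 1.52, 2.08 and 2.51 CPM in control libraries. Library 9 was the lowest of all 9. The log2 difference was -0.20 (95% interval -0.98 to 0.58, limma adjusted p = 0.697). It turned slightly positive, still uncalled, under both rescalings (0.05 and 0.17), with library quality weights (0.24) and without library 9 (0.15). Myd88, the adaptor below the Toll-like and IL-1 receptors, stood at 19.71, 10.23 and 11.56 CPM in macrophage-depleted libraries, against 12.94, 10.12 and 9.02 CPM in control libraries. Library 7 was the highest of all, and the other depleted libraries lay among the controls. Its log2 difference was 0.31 (95% interval -0.24 to 0.87, limma adjusted p = 0.361) on the deposited scale, 0.64 with equal library totals (adjusted p = 0.0372) and 0.79 under median-of-ratios scaling (adjusted p = 0.0142). Without library 7 it was 0.04 (adjusted p = 0.905), and with library quality weights it was -0.003 (adjusted p = 0.995).

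**Figure D2:**
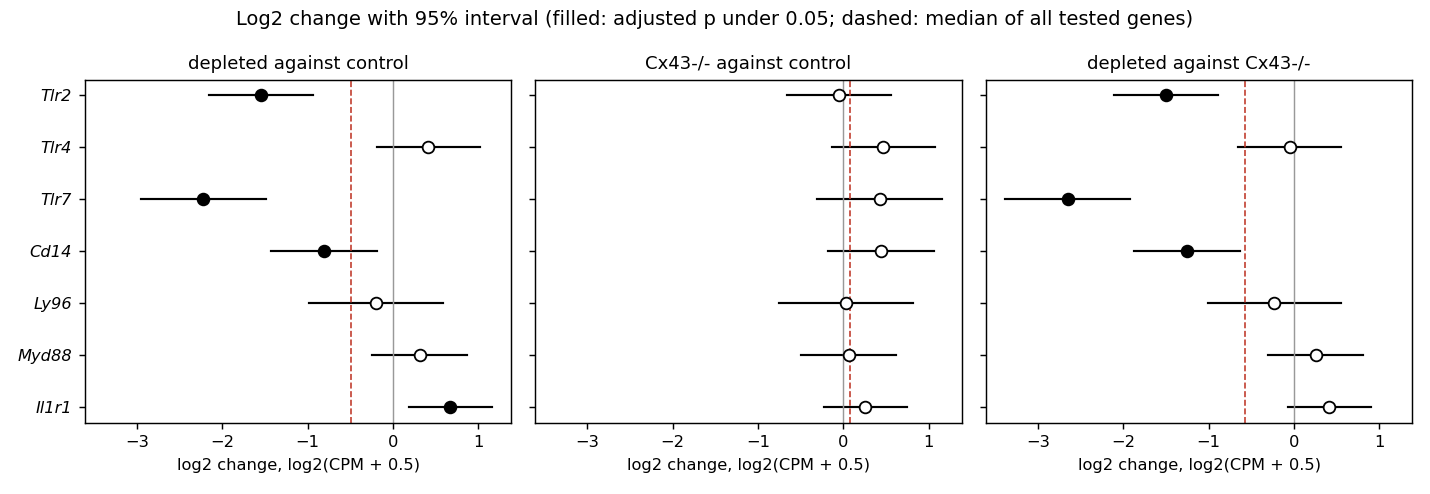
Log2 change on the log2(CPM + 0.5) scale (x axis) of the 7 tested genes (y axis) in each of the 3 comparisons; points are limma estimates, lines 95% intervals, filled points adjusted p under 0.05, and the dashed line the median of all 12925 genes tested. Tlr2 and Tlr7 lie well to the left of that median in both comparisons with depleted nodes, and no gene is filled in Cx43-/- against control.

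The IL-1 receptor went the other way. Il1r1 stood at 40.66, 30.43 and 23.99 CPM in macrophage-depleted libraries, against 22.94, 15.23 and 20.32 CPM in control libraries. All 3 depleted values exceeded the highest control value, with means of 31.7 ± 8.41 CPM and 19.5 ± 3.92 CPM (SD, n = 3 each). The log2 difference was 0.67 (SE 0.24, limma adjusted p = 0.0299). It was larger and still called with equal library totals (adjusted p = 0.000232) and under median-of-ratios scaling (1.16, adjusted p = 5.01e-05). On the deposited scale the call ended without control library 2 (0.51, adjusted p = 0.121) or 3 (0.71, adjusted p = 0.0672), without depleted library 7 (0.48, adjusted p = 0.0841) or 8 (0.69, adjusted p = 0.0577), without a filter (adjusted p = 0.0744) and when only these 6 libraries were fitted (adjusted p = 0.0688). Endothelial cells and fibroblasts are known carriers of this receptor. Of 8 endothelial markers 5 fell (3 under both rescalings), beside 33.0% lower among all genes, with a median of -0.67 against -0.49 for all genes. Their summed levels were 191 to 322 CPM in depleted and 373 to 519 CPM in control libraries. Of 8 fibroblast markers 0 were called (1 rose under both rescalings), with summed levels of 2653 to 2709 CPM and 2759 to 3253 CPM. The part of these cells in the level of Il1r1 was not tested.

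**Figure D3:**
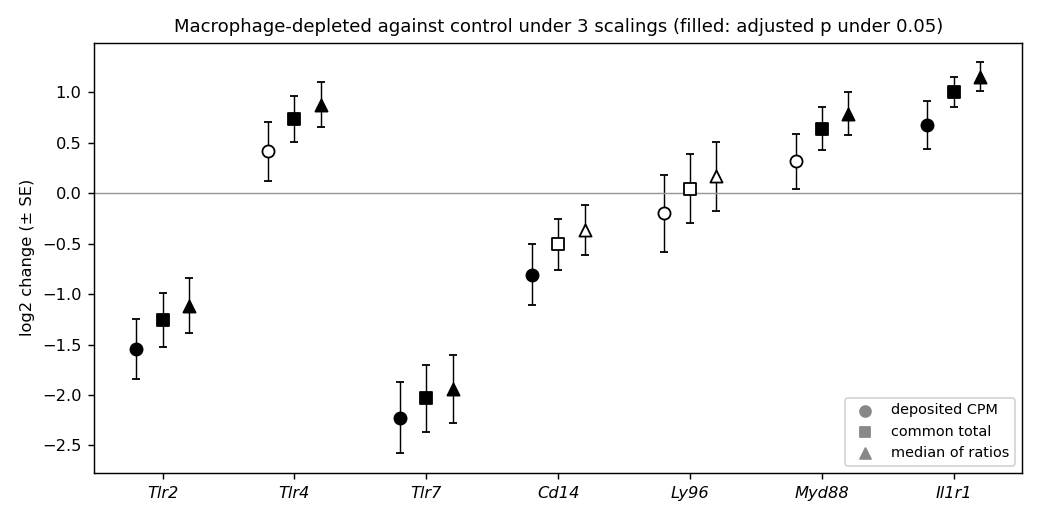
Log2 change (y axis, ± SE) of the 7 tested genes in macrophage-depleted against control nodes on the deposited scale (circles), with equal library totals (squares, common total) and under median-of-ratios scaling (triangles); filled symbols have an adjusted p under 0.05. Tlr2, Tlr7 and Il1r1 are filled under all 3 scalings, Cd14 only on the deposited scale, and Tlr4 and Myd88 only after rescaling.

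Nlrp3, Il1b and Il1rn were low, at most 1.28 CPM, and varied widely within groups. Nlrp3 stood at 0.53, 0 and 0.80 CPM in macrophage-depleted libraries, against 0.70, 1.28 and 0.80 CPM in control libraries. Its listed 0 in library 8 allows up to 0.0575 CPM, the value of 3 reads there, counting error only. Il1b, the IL-1 beta precursor, stood at 0.43, 0.90 and 0.31 CPM in macrophage-depleted libraries, against 0.30, 1.13 and 0.51 CPM in control libraries, on 8 to 61 reads over the 9 libraries. The depleted and control values interleaved. Il1rn, the receptor antagonist, stood at 0.79, 0.52 and 0 CPM in macrophage-depleted libraries, against 0.10, 0 and 0.09 CPM in control libraries. Libraries 7 and 8 exceeded every control, on 46 and 27 reads, and library 9 was listed at 0, which allows up to 0.0462 CPM. Without the filter on low values limma gave adjusted p = 0.274 for Nlrp3, 0.872 for Il1b and 0.244 for Il1rn. The SD within the 3 groups was 33.5% to 92.0% of the mean for these genes.

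Between genes of the same library, 7 log2 ratios of (CPM + 0.5), picked after the values were seen, were compared in the 3 group pairs. Scaling cancels from such a ratio only without the pseudocount, and those values are given beside the main ones. None of the 21 tests can pass the threshold with 3 against 3 libraries, so the ratios are a description. The log2 ratio of Tlr2 to Tlr4 was -2.03, -1.56 and -1.42 in macrophage-depleted libraries, against -0.22, 0.86 and 0.23 in control libraries. The groups did not overlap, and the mean difference was -1.96 (exact permutation p = 0.1, the smallest that 3 against 3 allows, 0.262 adjusted over 21 tests), or -2.17 without the pseudocount. Cd14 to Tlr4 gave -1.31, -1.68 and -0.88 in macrophage-depleted libraries, against 0.07, -0.31 and 0.04 in control libraries, a difference of -1.22 (exact permutation p = 0.1, adjusted 0.262), or -1.33 without the pseudocount. All 3 depleted libraries lay below all 3 controls here. For Ly96 to Tlr4 the groups overlapped, with a difference of -0.61 (exact permutation p = 0.2, adjusted 0.382), or -0.73 without the pseudocount (exact permutation p = 0.3, adjusted 0.420). They also overlapped for Myd88 to Tlr4 (-0.10, or -0.11 without the pseudocount) and Il1r1 to Tlr4 (0.26, or 0.25).

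Csf1r, the growth factor receptor of macrophages, stood at 7.77, 6.04 and 11.75 CPM in macrophage-depleted libraries, against 75.42, 41.54 and 61.14 CPM in control libraries. The log2 ratio of Cd14 to Csf1r was -0.85, -0.73 and -1.80 in macrophage-depleted libraries, against -3.07, -3.20 and -2.90 in control libraries, a difference of 1.93 without overlap (exact permutation p = 0.1, adjusted 0.262), both with and without the pseudocount. It sets the lower Cd14 beside a Csf1r that was lower still. Tlr2 to Csf1r gave a difference of 1.19 with overlapping groups (exact permutation p = 0.2, adjusted 0.382), or 1.09 without the pseudocount. Between depleted and Cx3cr1 Cx43-/- nodes Tlr2 to Tlr4 (-1.45, or -1.62 without the pseudocount) and Cd14 to Tlr4 (-1.20, or -1.31) did not overlap. Nor did Tlr2 to Csf1r (1.55, or 1.44) and Cd14 to Csf1r (1.79, or 1.75), while the other ratios did. Between Cx3cr1 Cx43-/- and control nodes only Il1r1 to Tlr4 did not overlap (-0.21, or -0.23). Of 9 monocyte markers, 7 were tested in depleted against control nodes and 5 rose (6 under both rescalings), beside 3.23% higher among all genes. Summed levels were 338 to 608 CPM in depleted and 161 to 199 CPM in control libraries. Chi3l3 passed the filter only through the depleted libraries, where it is high, and Ly6c2 through libraries 5, 7 and 9. The count is therefore no support for a change of the list. Most of the highest sum, in library 8, came from Hp at 263.8 CPM, Fn1 at 252.48 CPM and Vcan at 43.01 CPM, which are not limited to monocytes, while the monocyte genes Ly6c2 and Ccr2 stood at 0.17 and 8 CPM there. Adipocyte markers summed to 25.2 to 229 CPM in depleted libraries, highest in library 8, against 22.3 to 57.3 CPM in control libraries, with 0 of 4 called. Of 11 neutrophil markers 2 were tested and 1, Mmp9, fell, to 0.83, 0 and 0.45 CPM against 5.25, 3.4 and 2.91 CPM in control libraries. The list summed to 1.77 to 7.61 CPM in depleted and 3.96 to 6.63 CPM in control libraries, with Ly6g listed at 0 in all 9. Some untested markers stood higher in depleted libraries, with S100a8 at 3.31, 1.63 and 0 CPM against at most 0.13 CPM in controls. S100a9 stood at 1.43, 1.52 and 0.28 CPM against at most 0.02 CPM, and Cxcr2 at 0.38, 0.40 and 0.35 CPM against at most 0.03 CPM. Ltf and Camp were listed at 0 in all depleted libraries. The part of these cells in the Cd14 and Tlr2 levels was not tested.

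**Figure D4:**
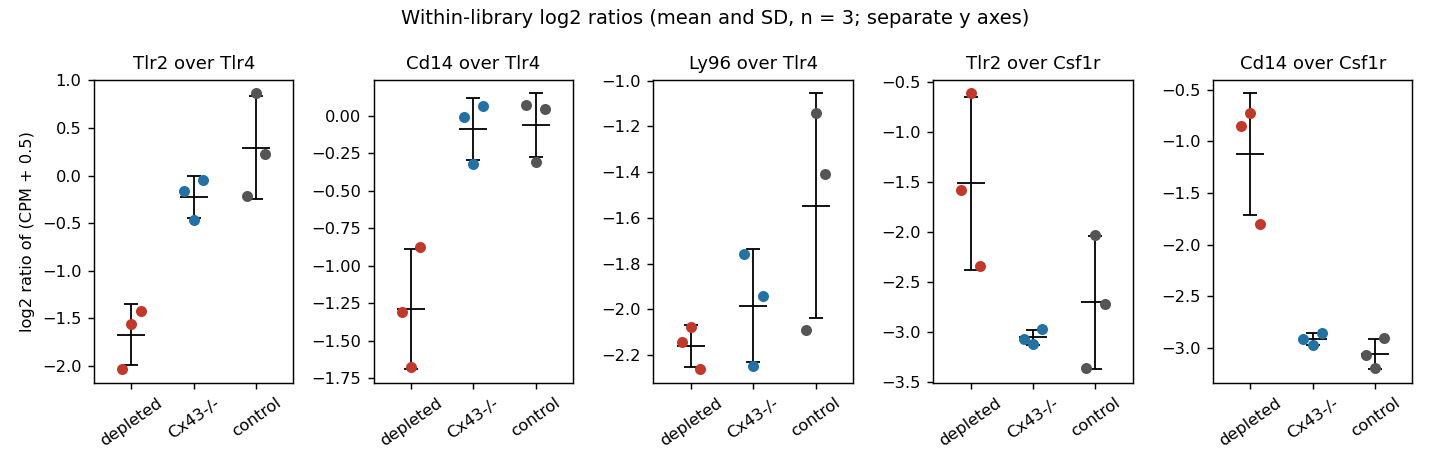
Log2 ratio of (CPM + 0.5) between pairs of genes in each library (y axis, a separate scale per pair), with depleted, Cx43-/- and control nodes from left to right; points are libraries, bars means and whiskers SD (n = 3). For Tlr2 over Tlr4 and Cd14 over Tlr4 the depleted libraries lie below all others, and for Cd14 over Csf1r above them.

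The second comparison asked whether deleting connexin 43 in Cx3cr1-expressing cells altered the same genes. It uses the same control libraries as the first comparison, and 0 of the 7 tested were called, beside 1 of 12925 genes (0.00774%). At an unadjusted p under 0.05, limma listed 191 genes and 0 of the 7. Tlr7 stood at 4.21, 4.69 and 4.19 CPM in Cx3cr1 Cx43-/- libraries, against 3.23, 3.63 and 2.56 CPM in control libraries, a log2 difference of 0.43 (95% interval -0.31 to 1.16, limma adjusted p = 1). Tlr4 stood at 8.13, 11.82 and 9.19 CPM in Cx3cr1 Cx43-/- libraries, against 8.11, 5.19 and 7.48 CPM in control libraries (0.47, 95% interval -0.14 to 1.07, limma adjusted p = 1). For both genes the lowest Cx3cr1 Cx43-/- value exceeded the highest control value, 2 of 7 beside 5.94% of all genes (8.94% without overlap in either direction).

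Tlr2 stood at 7.20, 8.43 and 8.89 CPM in Cx3cr1 Cx43-/- libraries, within the control range (log2 difference -0.05, 95% interval -0.66 to 0.56). Cd14 stood at 8.08, 9.36 and 9.65 CPM, overlapping the control libraries (0.44, 95% interval -0.17 to 1.06). Ly96 stood at 2.05, 2.09 and 2.02 CPM (0.03), Myd88 at 12.26, 9.48 and 11.60 CPM (0.06) and Il1r1 at 20.64, 26.43 and 22.49 CPM (0.26), all overlapping the control libraries. Nlrp3 at 0.83, 0.95 and 0.46 CPM, Il1b at 0.22, 0.42 and 0.14 CPM and Il1rn at 0, 0.27 and 0.31 CPM were again under the filter in Cx3cr1 Cx43-/- libraries. The intervals reach 1.07 for Tlr4 and 1.16 for Tlr7 on the log2 scale, so equality of the groups is not shown. Resident macrophage markers were not called either, at 0 of 16.

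The third comparison set the depleted nodes against the Cx3cr1 Cx43-/- nodes. It shares the depleted libraries with the first comparison and is therefore no independent repeat of it. Of the 7 genes 3 were lower and 0 higher, beside 40.7% lower and 2.69% higher among all genes (43.4% in either direction). These 3 genes also did not overlap, beside 54.0% of all genes (50.6% lower, 3.39% higher). Tlr7 had a log2 difference of -2.65 (SE 0.36, limma adjusted p = 9.31e-06), with means of 0.283 ± 0.146 CPM in depleted and 4.36 ± 0.283 CPM in Cx3cr1 Cx43-/- nodes (SD, n = 3 each). Tlr2 differed by -1.50 (SE 0.30, limma adjusted p = 0.000525). Cd14 averaged 3.52 ± 0.538 CPM in depleted and 9.03 ± 0.835 CPM in Cx3cr1 Cx43-/- nodes (SD, n = 3 each), without overlap, and differed by -1.25 (SE 0.30, limma adjusted p = 0.00248).

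Here the Cd14 call held with equal library totals (adjusted p = 0.0162), under median-of-ratios scaling (adjusted p = 0.0384) and without any single library (adjusted p up to 0.0171). Tlr4 averaged 9.65 ± 3.25 CPM in depleted and 9.71 ± 1.90 CPM in Cx3cr1 Cx43-/- nodes, a log2 difference of -0.05 (95% interval -0.65 to 0.55, limma adjusted p = 0.897). Ly96 differed by -0.23 (limma adjusted p = 0.639), with library 9 below and library 8 above all 3 Cx3cr1 Cx43-/- libraries. The log2 differences of the untested Nlrp3, Il1b and Il1rn were -0.49, 0.44 and 0.36, with overlapping groups. Il1r1 differed by 0.42 (limma adjusted p = 0.151) on the deposited scale, by 0.80 with equal library totals (adjusted p = 0.00138) and by 0.98 under median-of-ratios scaling (adjusted p = 0.000220). Without depleted library 9 it differed by 0.60 (adjusted p = 0.0385). Myd88 differed by 0.25 (limma adjusted p = 0.449) on the deposited scale and was called after both rescalings, at 0.63 (adjusted p = 0.0390) and 0.80 (adjusted p = 0.0129). On the deposited scale the groups overlapped. Only library 7, at 19.71 CPM, lay above the Cx3cr1 Cx43-/- libraries, while libraries 8 and 9 lay within their range.

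Across the 3 groups, the order of mean levels was depleted, control, Cx3cr1 Cx43-/- from low to high for Tlr7 and Cd14, with the upper pair not told apart by the test. For Tlr2 the control and Cx3cr1 Cx43-/- means, 8.53 and 8.17 CPM, differed by less than either SD. For Il1r1 the order from low to high was control, Cx3cr1 Cx43-/-, depleted, and only the outer groups were told apart on the deposited scale. The genes whose pattern over the 9 libraries was most like that of a called gene were Mterfd3 (Pearson r = 0.987) and Fam84b (0.983) for Tlr2, Fcna (0.988) and Zfp62 (0.987) for Tlr7, Ift52 (0.993) and Ccdc109a (0.992) for Cd14, and Cyp1b1 (0.974) and Xdh (0.973) for Il1r1. These coefficients are a description, picked as the highest among all tested genes, and all points share the group difference and the library scaling.

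Other genes of the pathway, taken from 9 lists, were read in the same fits. Among the other Toll-like receptors, 4 of 9 were tested in macrophage-depleted against control nodes, and 3 fell and 0 rose. Tlr5 and Tlr8 passed the filter only through the libraries of the other groups, where they are higher, and 5 receptors were not tested, so the count is no support for a change of the list. Tlr8, which senses RNA like Tlr7, stood at 0.26, 0.13 and 0.22 CPM in depleted libraries, against 1.62, 0.97 and 0.92 CPM in control libraries (-1.23, limma adjusted p = 0.0253, or 0.0206 without a filter). Tlr5, the flagellin receptor, stood at 0, 0 and 0.40 CPM in depleted libraries, against 0.72, 1.39 and 1.19 CPM in control libraries (-1.37, limma adjusted p = 0.0204, or 0.0178 without a filter). Both genes were below every control in all 3 depleted libraries. Tlr3, the receptor for double-stranded RNA, changed by -0.74 (adjusted p = 0.0416). Tlr8 lost its call without library 1 or 3 and Tlr3 without any of libraries 1 and 3 to 8, while Tlr5 fell under the filter without library 2, 3 or 4. With equal library totals 1 of the list was lower, and under median-of-ratios scaling 0. Of the co-receptors and chaperones 4 of 8 fell and 1 rose, beside 33.0% lower and 3.23% higher among all genes; 3 were lower and 1 higher with equal library totals, and 2 and 2 under median-of-ratios scaling. Unc93b1, which escorts Tlr7 and other nucleic acid receptors to endosomes, fell to 8.92 ± 1.18 CPM in depleted nodes, against 25.6 ± 4.07 CPM in control nodes (-1.47, SE 0.23, limma adjusted p = 5.79e-05). The endoplasmic reticulum protein Lrrc33 (-1.29, adjusted p = 0.00217) and the chaperone Cnpy3 (-1.01, adjusted p = 0.0146) fell with it, and the lipopolysaccharide-binding protein Lbp rose to 37.6 ± 13.3 CPM, against 17.3 ± 0.990 CPM (1.03, adjusted p = 0.00292). Of these, Cnpy3 lost its call without library 1 or 9 and under median-of-ratios scaling (adjusted p = 0.125).

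Of 18 tested adaptors and kinases, 7 fell and 0 rose on the deposited scale, near the 33.0% lower among all genes, with a median of -0.32 against -0.49 for all genes. The IL-1 receptor kinase Irak1 (24.4 ± 6.77 CPM in depleted against 46.5 ± 6.66 CPM in control nodes, -0.94, limma adjusted p = 0.00309) and the TAK1-binding proteins Tab1 (-1.04, adjusted p = 0.00404) and Tab3 (-1.11, adjusted p = 0.00675) had the smallest p. With equal library totals 3 of the list were lower and 2 higher, under median-of-ratios scaling 2 were lower and 3 higher, and Tab1 was no longer called (adjusted p = 0.0701). Among 10 tested negative regulators 3 fell and 1 rose, and each of the 4 calls was lost without at least 1 of the libraries; 1 was higher and 1 lower with equal library totals, and 2 were higher and 0 lower under median-of-ratios scaling. They were the NF-kB inhibitor Nfkbia (42.3 ± 16.3 CPM against 24.4 ± 10.1 CPM, 0.78, adjusted p = 0.0413), Tnip1 (-0.92, adjusted p = 0.0173), Socs1 (-1.07, adjusted p = 0.0328) and the receptor Sigirr (-0.98, adjusted p = 0.0479). Of 9 NF-kB subunits and inhibitors, 1 rose and 0 fell, with a median of 0.01, while 3 were higher with equal library totals and 4 under median-of-ratios scaling. The gene called on the deposited scale was Nfkbiz, a nuclear inhibitor-like protein induced by Toll-like receptors and IL-1 (10.6 ± 1.18 CPM against 4.33 ± 0.800 CPM, 1.21, adjusted p = 0.00247).

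Of the other inflammasome genes 10 of 15 were tested, and 1 rose and 1 fell. Txnip, a thioredoxin inhibitor reported to bind Nlrp3, stood at 569 ± 189 CPM in depleted and 212 ± 36.3 CPM in control nodes (1.38, limma adjusted p = 0.000949), and the mitochondrial Nlrx1 at 5.76 ± 2.40 CPM and 12.6 ± 0.998 CPM (-1.16, adjusted p = 0.00375). With equal library totals 3 were higher and 1 lower, and under median-of-ratios scaling 3 and 0. Casp1, the caspase that cuts IL-1 beta, stood at 2.33, 0 and 1.45 CPM in depleted libraries, against 2.75, 0.37 and 3.45 CPM in control libraries (-0.67, adjusted p = 0.343), a gene named after its values were seen. In the rest of the IL-1 family 3 of 11 genes were tested. The alarmin Il33 stood at 82.81, 61.06 and 26.26 CPM in depleted libraries, against 13.39, 7.01 and 9.68 CPM in control libraries, so that the lowest depleted value was above every control (2.34, SE 0.34, limma adjusted p = 2.13e-05). Its receptor Il1rl1 fell, at 0.91, 0 and 0 CPM in depleted libraries, against 1.90, 0.89 and 2.49 CPM in control libraries (-1.61, adjusted p = 0.00920), a call lost without control library 3 (adjusted p = 0.0585) and without a filter (adjusted p = 0.0588). It passed the filter only through the control and Cx3cr1 Cx43-/- libraries. Mast cells are known carriers of Il1rl1, and their markers fell in 5 of 5 tested cases (4 under both rescalings), beside 33.0% lower among all genes. Their summed levels were 3.21 to 4.08 CPM against 12.7 to 31.8 CPM. The marker Cpa3 also passed the filter only through the control and Cx3cr1 Cx43-/- libraries, so the count is no support for a change of the list. The part of mast cells in the level of Il1rl1 was not tested.

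Of 15 genes that IL-1 and Toll-like receptors are known to induce, 10 were tested in macrophage-depleted against control nodes, and 6 rose and 1 fell, the same counts under all 3 scalings. Saa3 and Il6 passed the filter only through the depleted libraries, where they are high, and 5 genes were not tested, so the count is no support for a change of the list. The iron-sequestering lipocalin Lcn2 (5.33, limma adjusted p = 6.32e-11), the acute phase gene Saa3 (adjusted p = 9.78e-08, or 0.00149 without a filter) and the chemokine Ccl2 (3.32, adjusted p = 2.01e-06) had the smallest p. Saa3 stood at 9.32, 34.01 and 9.86 CPM in depleted libraries, against 0.21, 0 and 0 CPM in control libraries, and was under the filter whenever a depleted library was left out. It was highest in library 8, as were the adipocyte markers, whose part in its level was not tested. Nos2, the inducible nitric oxide synthase, fell to 1.73 ± 0.550 CPM in depleted nodes, against 6.49 ± 2.11 CPM in control nodes (-1.63, adjusted p = 0.000615). Of 9 endogenous ligands of Toll-like receptors 7 were tested, and 2 rose and 1 fell, beside 3.23% higher and 33.0% lower among all genes. With equal library totals 3 rose and 1 fell, and under median-of-ratios scaling 4 and 0. Those that rose were fibronectin Fn1 (1.08, adjusted p = 0.000444) and galectin-3 Lgals3 (1.12, adjusted p = 0.00305), and the chaperone Hspd1 fell (-0.82, adjusted p = 0.00812, or 0.106 under median-of-ratios scaling). Fn1 is also on the monocyte marker list. The ligands S100a8 and S100a9 were under the filter. S100a8 stood at 3.31, 1.63 and 0 CPM in depleted libraries, against 0.13, 0 and 0 CPM in control libraries. S100a9 stood at 1.43, 1.52 and 0.28 CPM, against 0.02, 0 and 0 CPM.

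**Figure D5:**
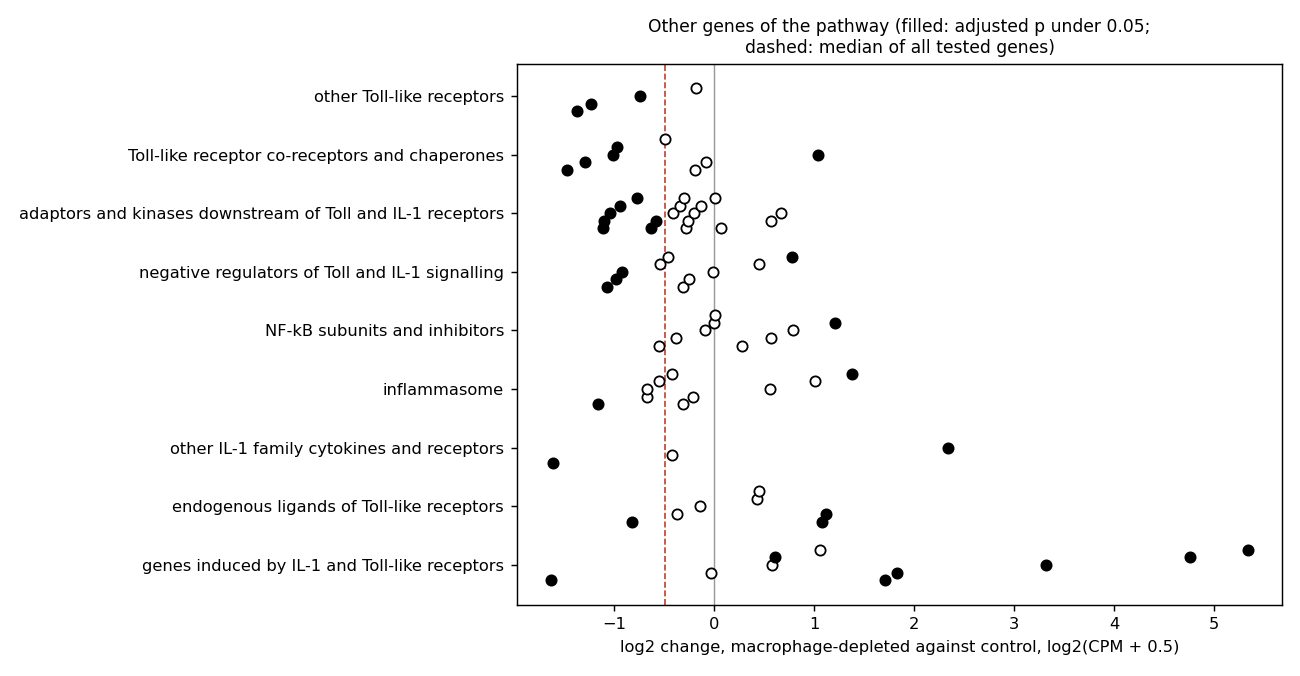
Log2 change in macrophage-depleted against control nodes (x axis) of every tested gene of the 9 pathway lists (y axis); filled points have an adjusted p under 0.05, and the dashed line is the median of all genes (-0.49). Filled points reach from Nos2 at -1.63 to Lcn2 at 5.33 among the induced genes, and lie on both sides of 0 in 6 of the 9 lists.

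In Cx3cr1 Cx43-/- against control nodes 0 genes of the 9 lists were called, and every gene named next had a limma adjusted p of 1. The gene of the smallest p in the adaptor list was the interferon regulatory factor Irf7, at 16.9 ± 5.89 CPM in Cx3cr1 Cx43-/- and 7.86 ± 2.70 CPM in control nodes (log2 difference 1.06). In the inflammasome list it was Txnip, at 450 ± 209 CPM and 212 ± 36.3 CPM (0.99), and among endogenous ligands the proteoglycan Vcan, at 56.1 ± 5.54 CPM and 37.5 ± 4.75 CPM (0.58). In the other lists the gene of the smallest p was Nfkbiz (0.59), Lbp (0.48), Ccl2 (0.76), Nfkbia (0.46), Il1rl1 (0.61) or the ribosomal RNA sensor Tlr13 (0.58). Of these 9 genes, picked by p, Irf7, Txnip, Vcan, Nfkbiz and Lbp did not overlap between the groups, as 8.94% of all genes did not.

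Against Cx3cr1 Cx43-/- nodes, 3 of the other Toll-like receptors were lower in depleted nodes, namely Tlr8 (-1.54, limma adjusted p = 0.00584), Tlr3 (-0.84, adjusted p = 0.0190) and Tlr5 (-1.27, adjusted p = 0.0258), with the same limit of the filter. Among all genes 40.7% were lower and 2.69% higher. Of the co-receptors and chaperones 4 were lower, with Unc93b1 (-1.54, adjusted p = 3.25e-05), Lrrc33 (-1.46, adjusted p = 0.000698) and Cnpy3 (-0.95, adjusted p = 0.0174) leading; 2 were lower and 3 higher under median-of-ratios scaling. Of the adaptors and kinases 8 were lower, led by Tab3 (-1.27), Irak1 (-0.94) and Tab1 (-1.04), and of the negative regulators 2, Tnip1 (-0.97) and Socs1 (-1.17). With equal library totals 3 of the adaptors were lower, and 1 of the negative regulators was lower and 2 higher; under median-of-ratios scaling 2 of the adaptors were lower, and 0 of the negative regulators were lower and 2 higher. In the inflammasome list Nlrx1 (-1.18), the Nlrp3-binding kinase Nek7 (-0.68) and the pore former Gsdmd (-0.78) were lower, and under median-of-ratios scaling 3 genes were higher and 0 lower there. The NF-kB subunit Nfkb1 was lower (-0.70, adjusted p = 0.0152), a call lost without library 5 or 8 and under both rescalings, where 3 of that list were higher and 0 lower. Il33 was higher (2.24, adjusted p = 3.52e-05) and Il1rl1 lower (-2.22, adjusted p = 0.000722). Among endogenous ligands Fn1 (1.03), Lgals3 (0.84) and tenascin Tnc (0.87) were higher and Hspd1 (-0.69) lower, and under median-of-ratios scaling 4 were higher and 0 lower. Of 10 induced genes 5 were higher and 1 lower, with Lcn2 (5.38), Saa3 (4.60) and Ccl2 (2.56) higher and Nos2 (-1.67) lower, with the same limit of the filter.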

How the data were processed

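The submitters' processing notes name the build mm9 and the tools HTSeq 0.6.0, STAR 2.3.0 and edgeR; their roles and the annotation are not given in the sources used here. The authors deposited CPM rounded to 2 decimals. Columns were matched to samples by name, with 0 columns of other samples. Whole reads could not be rebuilt after the rounding, so no count model was used, and reads per CPM were estimated from the spacing of low values. In library 8 a finer spacing of 0.0121 CPM explained the low values as well, and the coarser was taken. Numbers of reads are therefore approximate, and the limit for a listed 0 is 3 reads.

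Tests ran in limma 3.58.1 (R 4.3.3) on log2(CPM + 0.5), with a trended variance, all 9 libraries in 1 model and 3 contrasts tested two-sided. Genes needed 1 CPM in 3 libraries (12925 genes). P-values were adjusted over all of them by the Benjamini-Hochberg method. The series' design text calls the libraries biological replicates and does not say whether nodes were pooled, so p-values measure the spread between these libraries. Ratios, chosen after the values were seen, used two-sided exact permutation tests (scipy 1.17.1). The fit was tested on data simulated with independent noise for each gene and no shift of whole libraries. Such data cannot show how the calls depend on the scaling.

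The genes, lists and tests were chosen with earlier results of these data known. All 10 genes were named in every comparison. From each list the called genes were named, at most 3 in each direction by p, or the gene of the smallest p where none was called, and for each called member the 2 most correlated genes. Alternatives were other pseudocounts, filters, scalings, library weights, only the compared groups, and leaving out each library. Promoters are from RefSeq (GRCm38.p6).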

Additional observations from a re-analysis of the deposited data

How the results depend on the processing

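On the deposited scale 1 of the 7 genes was higher in macrophage-depleted against control nodes. That number was 3 after rescaling to a common total and 3 with median-of-ratios scaling, 0 without a filter, 0 when only the compared groups were fitted, and 0 to 2 when each library was left out. Against Cx3cr1 Cx43-/- nodes the number of higher genes was 0, and it was 2 after rescaling to a common total, 2 with median-of-ratios scaling, 1 with library quality weights and 0 to 1 when each library was left out. No direction with a call reversed under the alternatives run. The 3 genes under the filter were tested only without a filter, on at most 69 reads in a library. Without a pseudocount, an alternative chosen after seeing the data, the 21 ratio differences kept their signs. No paired analysis was possible because the labels number the libraries 1 to 9 and no number is shared between groups.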
